A study of Mus musculus with 9 samples.

Results

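The genes described here are 10 genes of gluconeogenesis and of the fasting response of the liver, namely Pck1, Pck2, G6pc, Fbp1, Pcx, Ppargc1a, Igfbp1, Irs2, Foxo1 and Klf15. They were selected by symbol, by a rule that uses no measured value but was written with earlier results of these data known, and each matched 1 of the 55401 genes in the table of read counts. All 10 passed the filter on low counts, which kept 15717 genes.

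RNA sequencing was performed on whole livers of female mice in 3 groups of 3 libraries. Healthy livers came from mice given no treatment. Untreated hepatocellular carcinoma (HCC) livers came from mice given oncogene plasmids by hydrodynamic tail vein injection with the sleeping beauty transposase, followed 1 week later by an adeno-associated virus serotype 8 (AAV8) without an insert. The miR-22-treated HCC livers received the same oncogenes and an AAV8 carrying the microRNA miR-22 in place of the blank virus. The mice were 6 weeks old when obtained, and HCC livers were harvested 5 weeks after the oncogenes and 4 weeks after the virus. Both HCC groups therefore carried the oncogenes and a virus, whereas the healthy group carried neither, so that oncogene, injection and virus cannot be told apart in a comparison with healthy livers. The labels list plasmids for activated AKT, N90-β-catenin and Nras-v12, while the methods name RAS and AKT for the sequenced tumors. The labels give the strain both as C57BL/6 and as FVB/N, while the methods name FVB/N for the sequenced livers, healthy ones included. The plasmids enter hepatocytes of the host's own liver, so each library mixes tumor and remaining liver. Feeding state and time of day at harvest are not given in the sources used here.

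Gluconeogenesis makes glucose from lactate, glycerol and amino acids, and between meals the liver is its main site. Glucagon, through cAMP, and glucocorticoids raise transcription of its enzymes in fasting. Insulin, through AKT, lowers it, largely because AKT phosphorylates FOXO1 and holds it outside the nucleus. Transcript level therefore describes only part of the control of FOXO1.

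Library totals were between 16664659 and 23908392 counts. Levels are given as counts per 1000000 (CPM) scaled by the trimmed mean of M-values (TMM), whose factors were between 0.865 and 0.872 in healthy livers, 1.12 and 1.22 in untreated HCC and 0.942 and 1.03 in miR-22-treated HCC. The labels do not tie libraries to named animals, so that p-values measure only the spread between these libraries. A gene was called changed at a Benjamini-Hochberg adjusted p under 0.05, over all genes tested, and a fold change over 1.5. Akt1, one of the oncogenes by name, was at 105 ± 2.96 CPM in healthy livers, 1486 ± 275 CPM in untreated HCC and 858 ± 223 CPM in miR-22-treated HCC (SD, n = 3), and was called in all comparisons. Nras was called higher in both HCC groups than in healthy livers, by a log2 fold change of 1.29 without and 0.93 with miR-22, but was not called between the HCC groups (-0.36, adjusted p = 0.0129 by edgeR). Plasmid and endogenous reads cannot be told apart in these gene totals.

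Markers of several cell types differed between the groups. The summed level of the 7 hepatocyte markers found (Alb, Ttr, Apoa1, Asgr1, Fgb, Ambp and Hnf4a) was between 117968 and 125249 CPM in healthy livers, 52313 and 64356 CPM in untreated HCC and 75988 and 91043 CPM in miR-22-treated HCC, and none was at 0. These sums were mostly Alb, at 101446 ± 1597, 45898 ± 4674 and 67209.5 ± 6635 CPM (SD, n = 3). Ambp, at 2221 ± 87.1, 2121 ± 41.2 and 2194 ± 96.6 CPM, was not called in any comparison. Of these 7, 6 were called lower in untreated HCC against healthy livers and 2 higher with miR-22 than without, with median log2 fold changes of -0.80 and 0.57. The 6 cholangiocyte markers summed to between 29.8 and 42.9 CPM in healthy livers, 3425 and 6311 CPM in untreated HCC and 1606 and 2751 CPM in miR-22-treated HCC, but these sums were mostly Spp1, at 26.8 ± 4.48, 4620.3 ± 1421 and 2017 ± 569 CPM (SD, n = 3). Of the other cholangiocyte markers, Tspan8, Sox9, Epcam and Krt7 were called higher in untreated HCC at much lower levels, and Krt19 was at 2.15 ± 0.97 and 3.96 ± 1.77 CPM in healthy and untreated livers and was not called. The 5 markers of dividing cells, all called higher in untreated HCC, summed to between 7.73 and 12.9, 134.8 and 178, and 85.6 and 128 CPM. The 7 stellate or fibroblast markers summed to between 344 and 418 CPM, 837 and 967 CPM, and 688 and 784 CPM in the same order, with 4 called higher and 2 lower in untreated HCC. Their rise was mostly that of Col1a1 and Col3a1, whereas Dcn (152 ± 9.72, 99.7 ± 17.7 and 163 ± 19.3 CPM) and Lrat (42.1 ± 10.6, 15.0 ± 7.59 and 32.1 ± 9.63 CPM) were called lower in untreated HCC and higher with miR-22, the directions of most of the 10 genes. The 6 endothelial markers summed to between 329 and 414 CPM, 208 and 265 CPM, and 276 and 354 CPM, with 3 called lower in untreated HCC and 1, Clec4g, higher with miR-22 than without. The 3 neutrophil markers tested, of 6 listed, were all called higher in untreated HCC, and the 6 summed to between 1.70 and 4.46 CPM, 16.1 and 21.2 CPM, and 14.5 and 23.1 CPM, with 1 at 0 throughout the healthy and 1 throughout the untreated libraries. The 6 lymphocyte markers summed to between 3.75 and 6.85 CPM in all groups, and the 6 macrophage markers to between 344 and 433 CPM, 320.02 and 379 CPM, and 404 and 429 CPM. In whole liver, fewer cells of a type and less RNA per cell cannot be told apart, and the part of cell composition in the results below was not tested.

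Most of the 10 genes fell in untreated HCC relative to healthy livers, and most were higher with miR-22 than without it. In untreated HCC, 8 were called lower, 1 (Pck2) higher, and Igfbp1 was not called. Over all genes tested, 18.1% were called lower and 22.7% higher in this comparison. With miR-22 against untreated HCC, 8 were called higher and 0 lower, beside 8.32% of all genes higher and 5.47% lower. Pck2 and Pcx were not called. Against healthy livers, miR-22-treated HCC had 2 genes called higher (Pck2 and Igfbp1) and 0 lower, beside 16.9% and 7.05% of all genes. The 2 comparisons with untreated HCC share those 3 libraries, so a low level there enters both with opposite sign.

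**Figure D1:**
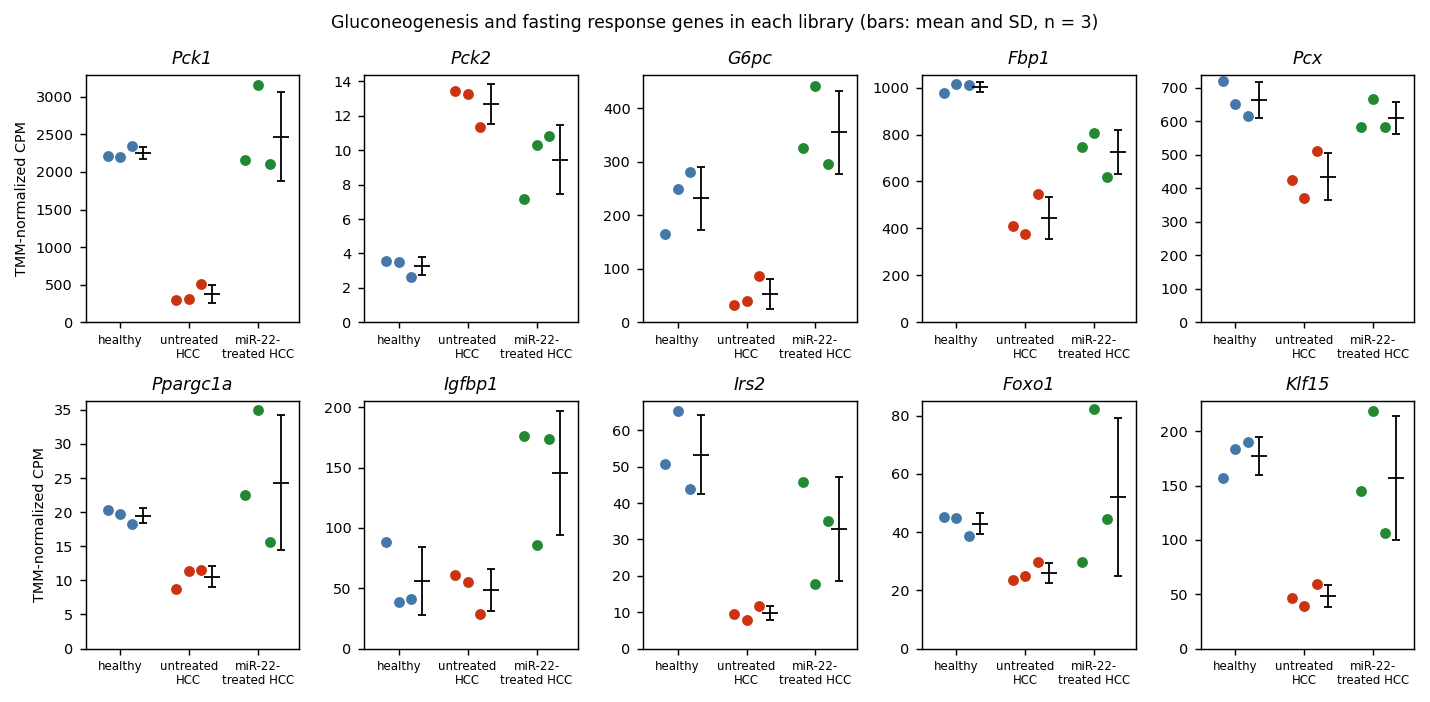
TMM-normalized CPM (vertical axes, linear from 0) of the 10 genes in each of 9 libraries, with the mean and SD of each group (n = 3) as a bar at the right of the points. Pck1, G6pc, Irs2 and Klf15 form a low group of 3 in untreated HCC, Pck2 is lowest in healthy livers, and Foxo1 spreads most widely in miR-22-treated HCC, from 29.6 to 82.1 CPM.

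Pck1 encodes the cytosolic phosphoenolpyruvate carboxykinase, which turns oxaloacetate into phosphoenolpyruvate and is the classical transcriptionally controlled step of gluconeogenesis. It was at 2209, 2203 and 2343 CPM in healthy livers 1, 2 and 3, at 294, 310.1 and 508 CPM in untreated HCC livers 2, 3 and 4, and at 2153, 3151 and 2108 CPM in miR-22-treated HCC livers 2, 3 and 4. Every untreated HCC library was far below every other library, whereas the healthy and miR-22-treated ranges overlapped. The level fell 6.07-fold in untreated HCC (log2 fold change -2.60, SE 0.22, adjusted p = 1.05e-06 by edgeR) and was 6.66-fold higher with miR-22 than without (2.74, SE 0.22, adjusted p = 2.02e-05), the 20th smallest p of that comparison. In GRCm39, Pck1 lies on chr2:172994744-173001066 on the plus strand. The 250 bases before its RefSeq start (table build GRCm38.p6, matched once in GRCm39 at chr2:172994616-172994865, plus strand) are shown because this promoter is the best known target of the cAMP pathway. Capitals mark the reverse complement of TGACG, a 5-base part of the cAMP response element, starting 90 bases before the start.

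Pck1: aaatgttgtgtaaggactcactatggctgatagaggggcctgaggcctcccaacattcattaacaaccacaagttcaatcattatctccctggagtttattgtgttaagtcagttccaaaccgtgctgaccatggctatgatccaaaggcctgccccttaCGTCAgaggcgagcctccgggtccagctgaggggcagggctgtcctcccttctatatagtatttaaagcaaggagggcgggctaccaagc

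Pck2 encodes the mitochondrial isozyme, which carries out the same reaction inside mitochondria, and it moved the other way in HCC. Its levels were 3.58, 3.53 and 2.64 CPM in healthy livers, 13.4, 13.3 and 11.4 CPM in untreated HCC and 7.15, 10.3 and 10.8 CPM in miR-22-treated HCC. The groups did not overlap in any comparison, with the untreated HCC libraries highest and healthy livers lowest. Pck2 rose 3.91-fold in untreated HCC (log2 fold change 1.97, SE 0.20, adjusted p = 3.45e-06 by edgeR) and was 2.91-fold higher in miR-22-treated HCC than in healthy livers (1.54, SE 0.20, adjusted p = 8.82e-05). Between the HCC groups the difference of -0.42 (95% confidence interval -0.81 to -0.04) had an adjusted p of 0.107 and was not called. Pck2 lies on chr14:55777542-55788758 (GRCm39, plus strand). The 250 bases before its RefSeq start (chr14:55777473-55777722, GRCm39, plus strand) are shown for comparison with its isozyme, with capitals on the reverse complement of AAAACAA, a part of the insulin response sequence, from 160 bases before the start.

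Pck2: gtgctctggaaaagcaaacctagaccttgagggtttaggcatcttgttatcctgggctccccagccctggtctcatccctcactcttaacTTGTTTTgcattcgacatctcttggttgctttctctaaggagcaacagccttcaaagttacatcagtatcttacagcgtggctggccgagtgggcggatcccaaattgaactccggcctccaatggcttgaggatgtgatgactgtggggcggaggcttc

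The ratio of the 2 isozymes needs no scaling between libraries. Per 100 Pck1 counts there were 0.162, 0.160 and 0.113 Pck2 counts in healthy livers, 4.57, 4.27 and 2.23 in untreated HCC, and 0.332, 0.328 and 0.515 in miR-22-treated HCC. The 3 groups did not overlap. On the log2 scale the ratio was 4.62 higher in untreated HCC than in healthy livers (24.6-fold), 3.20 lower with miR-22 than without (-3.20, a 9.20-fold difference), and 1.42 higher in miR-22-treated HCC than in healthy livers (2.68-fold). Each of these 3 differences had p = 0.1 by a two-sided exact permutation test over libraries, the smallest that 3 against 3 allows, and an adjusted p of 0.1. Pck1 stayed the more abundant isozyme in every library: per kilobase of exon, the mean level of Pck1 was 608, 100.2 and 667 CPM per kilobase in healthy, untreated and miR-22-treated livers, against 0.388, 1.51 and 1.13 CPM per kilobase for Pck2.

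G6pc encodes the catalytic subunit of glucose-6-phosphatase, which releases free glucose in the last step of the pathway. Its levels were 166, 250.1 and 280.3 CPM in healthy livers, 32.5, 39.9 and 85.7 CPM in untreated HCC and 326, 443 and 297 CPM in miR-22-treated HCC. Untreated HCC was below both other groups, and every miR-22-treated library was above every healthy one. G6pc fell 4.39-fold in untreated HCC (log2 fold change -2.14, SE 0.32, adjusted p = 9.43e-05 by edgeR) and was 6.72-fold higher with miR-22 than without (2.75, SE 0.32, adjusted p = 0.000221). Against healthy livers the miR-22-treated difference of 0.61 (95% confidence interval -0.05 to 1.27) was not called (adjusted p = 0.136). It was called with library totals as the only scaling, without the filter on low counts, in a fit of the 2 groups alone, and without untreated HCC liver 4 (0.61, adjusted p = 0.0264). G6pc, named G6pc1 in the annotation, lies on chr11:101258369-101268729 (GRCm39, plus strand). The 250 bases before its RefSeq start (chr11:101258292-101258541, GRCm39, plus strand) are shown because its level followed that of Pck1. The only capitals mark CACCC, a box that factors of the KLF family can bind, from 152 bases before the start.

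G6pc: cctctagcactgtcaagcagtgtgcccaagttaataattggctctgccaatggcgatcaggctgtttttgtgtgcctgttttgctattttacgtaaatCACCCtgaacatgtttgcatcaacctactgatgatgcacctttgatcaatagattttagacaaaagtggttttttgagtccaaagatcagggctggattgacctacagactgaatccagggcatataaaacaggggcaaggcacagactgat

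Fbp1 encodes fructose-1,6-bisphosphatase, the enzyme that opposes phosphofructokinase. It was at 977, 1017 and 1009 CPM in healthy livers, 412, 375 and 547 CPM in untreated HCC and 748, 806 and 621 CPM in miR-22-treated HCC. The 3 groups did not overlap, with the miR-22-treated libraries between the others. Fbp1 fell 2.25-fold in untreated HCC (log2 fold change -1.17, SE 0.15, adjusted p = 2.62e-05 by edgeR) and was 1.63-fold higher with miR-22 than without (0.71, SE 0.15, adjusted p = 0.00519). The latter was below the fold change needed with library totals as the only scaling (0.47, adjusted p = 0.0110). That call was also lost in a fit of the HCC groups alone with the replicate number as a block. With miR-22, Fbp1 was 1.38-fold lower than in healthy livers (-0.47, adjusted p = 0.0268), below the fold change needed for a call. The gene lies on chr13:63012567-63036263 (GRCm39, minus strand).

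Pcx encodes pyruvate carboxylase, which supplies oxaloacetate from pyruvate in mitochondria. It was at 721, 651 and 616 CPM in healthy livers, 424, 369.5 and 510.3 CPM in untreated HCC and 583, 665 and 583 CPM in miR-22-treated HCC. All 3 untreated HCC libraries were below the other 6, which overlapped. The fall in untreated HCC was 1.52-fold (log2 fold change -0.61, SE 0.13, adjusted p = 0.00158 by edgeR), just past the fold change needed, and dropped below it without healthy liver 1 (-0.56) or untreated HCC liver 3 (-0.50). With miR-22 against untreated HCC the difference was 1.40-fold (0.49, adjusted p = 0.0173) and was not called. It was called without untreated HCC liver 4 (0.62, adjusted p = 0.00426). Pcx lies on chr19:4559902-4672189 (GRCm39, plus strand).

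Per kilobase of exon, the order of the 5 enzymes by mean level in healthy livers was Pck1 (608 CPM per kilobase), Fbp1 (426 ± 8.92), Pcx (106 ± 8.64), G6pc (95.4 ± 24.4) and Pck2 (0.388 ± 0.063), SD with n = 3, of which only Pcx and G6pc lay within their spread of each other. In untreated HCC, Fbp1 (189 ± 38.4 CPM per kilobase) was ahead of Pck1 (100.2 ± 32.2), and in miR-22-treated HCC Pck1 (667 ± 159) was again ahead of Fbp1 (308 ± 40.2). Exon lengths were taken from the GRCm39 annotation as all bases in any annotated exon of the gene, and ran from 2351 bases for Fbp1 to 8376 bases for Pck2. Such a length can exceed that of the transcripts present, which lowers the level per kilobase, and transcripts were not told apart here. The gene identifiers of the counts carry older version numbers than this annotation, so the lengths may differ from those of the models that were counted.

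Ppargc1a encodes PGC-1α, a coactivator induced by glucagon in fasting. Its levels were 20.4, 19.8 and 18.3 CPM in healthy livers, 8.72, 11.4 and 11.5 CPM in untreated HCC and 22.5, 35.0 and 15.6 CPM in miR-22-treated HCC. Untreated HCC did not overlap with either other group, and the miR-22-treated libraries reached both above and below the healthy range. Ppargc1a fell 1.85-fold in untreated HCC (log2 fold change -0.88, SE 0.23, adjusted p = 0.00594 by edgeR) and was 2.30-fold higher with miR-22 than without (1.20, SE 0.23, adjusted p = 0.00328). The fall was not called with library totals as the only scaling (-0.46, adjusted p = 0.0809), nor with the replicate number as a block. The gene lies on chr5:51611592-51725068 (GRCm39, minus strand).

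Foxo1 encodes the forkhead factor that insulin inactivates. It was at 45.3, 44.8 and 38.7 CPM in healthy livers, 23.4, 24.8 and 29.9 CPM in untreated HCC and 29.6, 82.1 and 44.6 CPM in miR-22-treated HCC. The miR-22-treated liver 2 lay below untreated HCC liver 4, which made Foxo1 the only one of the 10 genes to overlap between the HCC groups, and liver 3 was far above all others. Foxo1 was called 1.65-fold lower in untreated HCC (log2 fold change -0.72, SE 0.27, adjusted p = 0.0370 by edgeR) and 1.99-fold higher with miR-22 (0.99, SE 0.27, adjusted p = 0.0184). Both calls depended on single libraries and on the processing. The first was lost without healthy liver 1 (adjusted p = 0.0839), healthy liver 2 (0.0887), untreated HCC liver 2 (0.112) or untreated HCC liver 3 (0.0987), by DESeq2 (0.0795), with library totals as the only scaling (-0.30, adjusted p = 0.313) and with at least 10 counts required in every library (0.0501). It was also lost with the replicate number as a block. The second was lost without untreated HCC liver 2 (adjusted p = 0.0738), untreated HCC liver 3 (0.0713) or miR-22-treated liver 3, where the log2 fold change was 0.51 (adjusted p = 0.0648). With the replicate number as a block, it was lost in the fit of all libraries and in that of the HCC groups alone. Foxo1 lies on chr3:52175757-52260642 (GRCm39, plus strand).

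Klf15 encodes a glucocorticoid-induced Krüppel-like factor that promotes amino acid breakdown for gluconeogenesis. It was at 157, 183 and 190.4 CPM in healthy livers, 46.8, 38.8 and 59.5 CPM in untreated HCC and 146, 219 and 107 CPM in miR-22-treated HCC. Untreated HCC was below all other libraries, and the miR-22-treated libraries extended past both ends of the healthy range. Klf15 fell 3.66-fold in untreated HCC (log2 fold change -1.87, SE 0.23, adjusted p = 1.60e-05 by edgeR) and was 3.24-fold higher with miR-22 than without (1.70, SE 0.22, adjusted p = 0.000431). It lies on chr6:90438998-90452220 (GRCm39, plus strand).

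Irs2 encodes the insulin receptor substrate that hepatocytes raise in fasting through FOXO1. Its levels were 50.7, 65.3 and 44.0 CPM in healthy livers, 9.61, 7.84 and 11.8 CPM in untreated HCC and 45.9, 17.7 and 35.0 CPM in miR-22-treated HCC. Untreated HCC was lowest without overlap, and 2 of the 3 miR-22-treated libraries were below the healthy range while liver 2 was inside it. Irs2 fell 5.44-fold in untreated HCC (log2 fold change -2.44, SE 0.29, adjusted p = 1.27e-05 by edgeR) and was 3.36-fold higher with miR-22 than without (1.75, SE 0.28, adjusted p = 0.00124). Against healthy livers the miR-22-treated difference was -0.69 (95% confidence interval -1.27 to -0.11, adjusted p = 0.0590) and was not called, although DESeq2 called it (-0.73, adjusted p = 0.0238), as did the fit without miR-22-treated liver 2 (-1.02, adjusted p = 0.0111). Irs2 lies on chr8:11034681-11059499 (GRCm39, minus strand).

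Igfbp1 encodes a secreted binding protein for insulin-like growth factors whose transcription insulin represses rapidly. It differed from the other 9 genes in its pattern, with 88.3, 38.9 and 41.0 CPM in healthy livers, 60.9, 55.3 and 28.3 CPM in untreated HCC and 176, 86.0 and 174 CPM in miR-22-treated HCC. Healthy and untreated HCC livers overlapped, and all miR-22-treated libraries were above every untreated one, although liver 3 was just below healthy liver 1. The difference between untreated HCC and healthy livers was -0.22 on the log2 scale (95% confidence interval -0.99 to 0.55, adjusted p = 0.620 by edgeR), an interval that includes a change of 1.5-fold or more in the downward direction. Its sign turned without healthy liver 1 (0.25) or untreated HCC liver 4 (0.05). With miR-22, Igfbp1 was 3.03-fold higher than in untreated HCC (log2 fold change 1.60, SE 0.36, adjusted p = 0.00722) and 2.60-fold higher than in healthy livers (1.38, SE 0.36, adjusted p = 0.00950). The latter call missed the threshold without healthy liver 2 (1.16, adjusted p = 0.0503). Igfbp1 lies on chr11:7147651-7152546 (GRCm39, plus strand). The 250 bases before its RefSeq start (chr11:7147537-7147786, GRCm39, plus strand) are shown because the insulin response sequence is well described in this promoter. Capitals mark AAAACAA from 107 bases before the start and CACCC from 136 bases before it.

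Igfbp1: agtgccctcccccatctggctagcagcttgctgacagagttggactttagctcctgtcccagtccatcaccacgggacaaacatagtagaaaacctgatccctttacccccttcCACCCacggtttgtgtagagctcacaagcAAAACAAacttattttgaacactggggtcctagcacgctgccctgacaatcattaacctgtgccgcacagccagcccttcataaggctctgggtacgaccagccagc

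The same short motifs were counted on both strands in the whole RefSeq promoter windows, 250 bases before to 50 bases after the start. The 10 genes had 11 windows, Pcx having 2, and the reference held 32851. TGACG was in 3 of the 11 windows (Pck1, Ppargc1a and Klf15) and in 20.8% of all windows, while the full cAMP response element TGACGTCA, which contains it, was in 0 of 11 and 1.79%. AAAACAA was in 3 windows (Igfbp1, Irs2 and Pck2) and in 9.02% of all, the forkhead core GTAAACA in 0 and 3.65%, and CACCC in 7 and 57.5%. A match describes letters in the window and not a bound site, and an absent match says only that these letters are not in it. Windows with AAAACAA belonged to Irs2, called lower in untreated HCC, Pck2, called higher, and Igfbp1, not called.

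**Figure D2:**
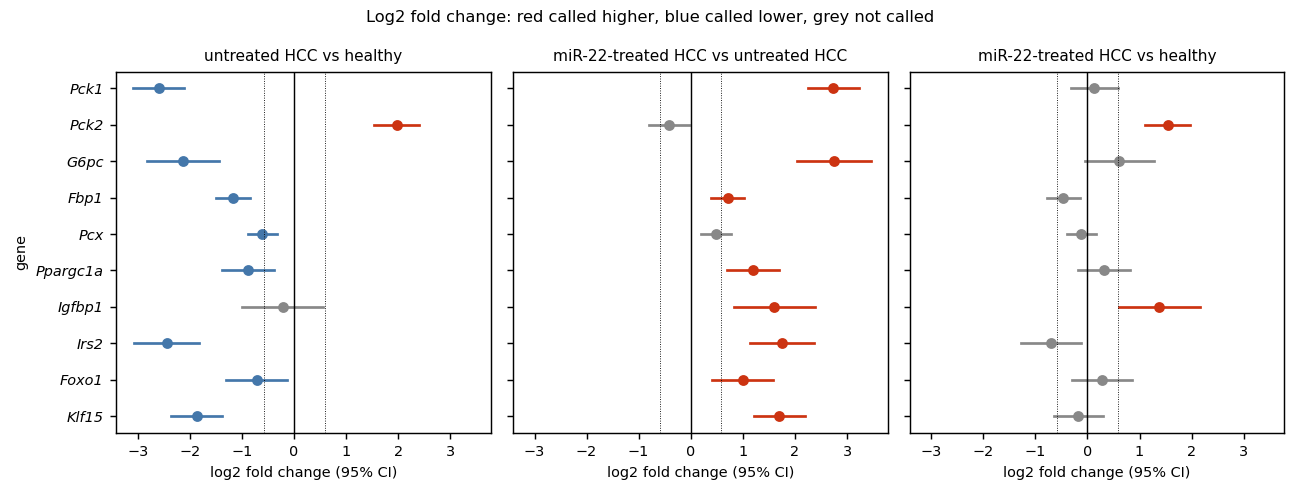
Log2 fold changes (horizontal axis) of the 10 genes in the 3 comparisons, with 95% confidence intervals from the edgeR fit as lines; red points were called higher, blue lower and grey not called, and dotted lines mark a fold change of 1.5. The untreated HCC intervals lie left of 0 for 8 genes, and the intervals against healthy livers at the right include 0 for Pck1, G6pc, Pcx, Ppargc1a, Foxo1 and Klf15.

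Over the 10 genes, the median log2 fold change was -1.03 in untreated HCC against healthy livers, 1.40 with miR-22 against untreated HCC and 0.20 in miR-22-treated HCC against healthy livers, beside 0.01, 0.00 and 0.02 over all genes tested. The groups did not overlap for 9 of the 10 genes in the first comparison, where 65.3% of all genes did not. They did not overlap for 9 in the second (39.3% of all genes) and for 3 in the third (48.8% of all genes), which were Pck2, G6pc and Fbp1. For the genes not called against healthy livers, the intervals show which differences remain possible. The interval was -0.32 to 0.59 for Pck1, -0.40 to 0.17 for Pcx, -0.18 to 0.81 for Ppargc1a, -0.30 to 0.85 for Foxo1 and -0.64 to 0.30 for Klf15. Only for Pcx did the interval stay within a 1.5-fold difference in both directions.

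Within groups, the genes did not vary alike. In miR-22-treated liver 3, Pck1, G6pc, Fbp1, Pcx, Ppargc1a, Foxo1 and Klf15 were at the highest level of the group while Igfbp1 and Irs2 were at the lowest. Relative to the mean log2 CPM of its group, that library was at 0.78 for Foxo1, 0.60 for Ppargc1a and 0.54 for Klf15, but at -0.68 for Igfbp1 and -0.78 for Irs2. In untreated HCC liver 4, G6pc was at 0.83, Pck1 at 0.50 and Fbp1 and Klf15 at 0.32 above the group mean, and Igfbp1 was again at the opposite end, at -0.69. Among healthy livers, liver 1 was at 0.76 for Igfbp1 and at -0.45 for G6pc. In each of the 3 groups, the library with the highest G6pc had less Igfbp1 than the library with the lowest G6pc. These deviations rest on 1 library each and were not tested.

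**Figure D3:**
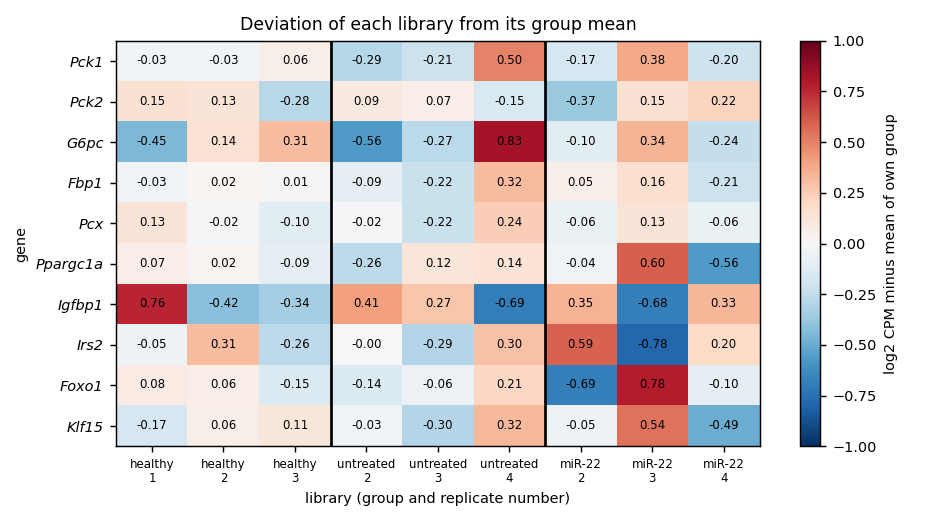
Difference of each library's log2 CPM from the mean of its own group (colour and printed value) for the 10 genes (rows) in 9 libraries (columns, by group and replicate number). Untreated HCC liver 4 and miR-22-treated liver 3 are high for Pck1, G6pc and Klf15 and low for Igfbp1, at -0.69 and -0.68.

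Of 3 glucocorticoid-responsive genes outside the 10, chosen after their values were seen, Tat and Fkbp5 were highest in miR-22-treated liver 3 within that group and Sgk1 was highest in liver 2 (51.6, 47.1 and 35.2 CPM in livers 2, 3 and 4). Tat, the tyrosine aminotransferase of amino acid breakdown, was at 1751, 2054 and 2117 CPM in healthy livers, 355, 195 and 403 CPM in untreated HCC and 1633, 2934 and 907 CPM in miR-22-treated HCC. Fkbp5, a chaperone of the glucocorticoid receptor and a target of it, was at 93.7, 70.3 and 78.3 CPM in healthy livers, 31.4, 35.9 and 32.1 CPM in untreated HCC and 53.5, 133 and 78.6 CPM in miR-22-treated HCC. Tat and Fkbp5 were called higher against untreated HCC, Tat by a log2 fold change of 2.52 (adjusted p = 0.000720 by edgeR) and Fkbp5 by 1.41 (adjusted p = 0.00183). Over the 9 libraries Tat was also the gene whose log2 CPM was most like that of Klf15, with a Pearson r of 0.995.

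The likeness to other genes was computed the same way for each of the 10. The most similar gene was D230025D16Rik for Pck1 (r = 0.990), Tspan17 for Pck2 (0.992), 1700028E10Rik for G6pc (0.994), Serpinf1 for Fbp1 (0.998) and Serpina3k for Pcx (0.991). For the regulators and insulin-responsive genes it was Rnf217 for Ppargc1a (0.975), Dclre1b for Igfbp1 (0.976), Gm15746 for Irs2 (0.993) and Fbxo31 for Foxo1 (0.957). Among the 10 themselves, Pck1 and G6pc were each other's closest (r = 0.970), whereas the closest member reached only 0.405 for Igfbp1 and 0.179 for Pck2. These values are descriptions over 9 libraries that fall into 3 groups, with no test.

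Among the steps that feed carbon into the pathway, most calls had the direction of the enzymes. Of 18 genes for lactate, glycerol and amino acid entry and for the mitochondrial shuttles, 10 were called lower and 2 higher in untreated HCC (55.6% and 11.1%, beside 18.1% and 22.7% of all genes), and 6 were called higher and 0 lower with miR-22 against untreated HCC (33.3% higher, beside 8.32% of all genes). Against healthy livers with miR-22, 2 were called higher and 3 lower (11.1% and 16.7%, beside 16.9% and 7.05%). Gpt, the alanine aminotransferase, was at 373 ± 21.97, 119 ± 13.1 and 206 ± 22.7 CPM in healthy, untreated and miR-22-treated livers (SD, n = 3), and was called in all comparisons, also against healthy livers (log2 fold change -0.86, adjusted p = 0.000115 by edgeR). Slc25a13, the aspartate/glutamate carrier citrin, followed the same order at 330 ± 20.9, 111 ± 18.4 and 187 ± 24.2 CPM. Sds, serine dehydratase, was at 36.8 ± 13.9 CPM in untreated HCC and 173 ± 69.6 CPM with miR-22 (2.22, adjusted p = 0.000351). Slc16a1, a lactate and pyruvate transporter, went the other way and was higher in untreated HCC (137 ± 11.1 CPM) than in healthy livers (58.7 ± 4.00 CPM).

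Genes of glucose-6-phosphate and hexose handling, some of them shared with glycolysis, had shares of calls that differed from those of all genes mainly against healthy livers. Of 12 tested genes for glucose-6-phosphate and hexose handling, 4 were called higher and 2 lower in untreated HCC, 1 higher and 1 lower with miR-22 against untreated HCC, and 0 in either direction against healthy livers at a median log2 fold change of 0.07. In untreated HCC this was 33.3% higher and 16.7% lower, beside 22.7% and 18.1% of all genes, and with miR-22 against untreated HCC 8.33% in each direction, beside 8.32% higher and 5.47% lower of all genes. The 0 of 12 against healthy livers stands beside 16.9% higher and 7.05% lower of all genes. Slc37a4, the transporter that carries glucose-6-phosphate to the G6pc enzyme, fell from 302 ± 24.3 to 101 ± 17.7 CPM in untreated HCC (SD, n = 3) and was at 215 ± 49.5 CPM with miR-22 (log2 fold change 1.09 against untreated HCC, adjusted p = 0.000852 by edgeR). Gpi1 and Eno1, which work in both directions of the pathway, rose in untreated HCC by 0.69 and 0.92 on the log2 scale. Against healthy livers with miR-22, Gpi1 (0.40, adjusted p = 0.00866 by edgeR) and Eno1 (0.49, 0.0234) remained higher and Slc37a4 (-0.49, 0.0298) lower. They missed a call only by the fold change needed, so the absence of calls does not mean healthy levels. G6pc3, the ubiquitous homolog of G6pc, was at 7.51 ± 1.27 CPM in untreated HCC and fell with miR-22 to 4.89 ± 0.33 CPM (-0.62, adjusted p = 0.0364), opposite in direction to G6pc.

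Upstream of the enzymes, the share of signaling genes called lower in untreated HCC was near that of all genes, and the share of transcription factors was above it. Of 25 genes of glucagon, cAMP and glucocorticoid signaling, 6 were called lower and 2 higher in untreated HCC (24.0% and 8.00%, beside 18.1% and 22.7% of all genes), and 4 higher and 0 lower with miR-22 against untreated HCC (16.0% higher, beside 8.32%). Gcgr, the glucagon receptor, was at 254 ± 20.7, 117 ± 22.8 and 193 ± 2.97 CPM in healthy, untreated and miR-22-treated livers (SD, n = 3), with log2 fold changes of -1.12 and 0.72 for the first and the second comparison. Nr3c1, the glucocorticoid receptor, fell by 1.16 on the log2 scale in untreated HCC. Crtc3, a cAMP-regulated coactivator, rose there by 1.05 and was the only gene of this list called against healthy livers with miR-22 (0.64, adjusted p = 0.00194 by edgeR), 4.00% of the list beside 16.9% higher and 7.05% lower of all genes. Of 19 transcription factors and coregulators of gluconeogenesis, 10 were called lower and 0 higher in untreated HCC (52.6% lower, beside 18.1% of all genes), and 7 higher and 1 lower with miR-22 against untreated HCC (36.8% and 5.26%, beside 8.32% and 5.47%). Against healthy livers with miR-22, 1 was called higher and 4 lower (5.26% and 21.1%, beside 16.9% and 7.05%). Ppara, the lipid-sensing receptor of the fasted liver, was at 199 ± 23.2, 52.8 ± 10.6 and 143 ± 25.3 CPM, and Cry2, a clock repressor, at 77.3 ± 6.39, 22.3 ± 1.10 and 41.2 ± 1.49 CPM. Cebpa fell by 1.32 in untreated HCC and was still lower than in healthy livers with miR-22 (-0.77, adjusted p = 0.00121 by edgeR). Foxa2, at 46.3 ± 7.69, 31.6 ± 3.45 and 28.2 ± 3.35 CPM, was called lower than in healthy livers only with miR-22 (-0.72, adjusted p = 0.00134). In untreated HCC its difference from healthy livers (-0.55) was below the fold change needed. Cebpb was 1.07 higher on the log2 scale with miR-22 than in untreated HCC (adjusted p = 0.000773).

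Insulin signaling genes were called at shares near those of all genes. Of 23 genes from the insulin receptor to FOXO1, beside the members, 4 were called higher and 6 lower in untreated HCC (17.4% and 26.1%, beside 22.7% and 18.1% of all genes), 2 higher and 2 lower with miR-22 against untreated HCC (8.70% each, beside 8.32% and 5.47%), and 4 higher and 1 lower against healthy livers (17.4% and 4.35%, beside 16.9% and 7.05%). Apart from Akt1, Grb10, an adaptor that inhibits the insulin receptor, was at 6.92 ± 0.12, 29.5 ± 0.61 and 18.5 ± 3.50 CPM in healthy, untreated and miR-22-treated livers (SD, n = 3) and was called in all comparisons. Insr, the insulin receptor, fell by 1.04 on the log2 scale in untreated HCC (adjusted p = 3.94e-06 by edgeR). Tsc1 and Sgk1 were higher with miR-22 than without, by 0.60 and 0.76 on the log2 scale. Grb14, another receptor inhibitor, was above healthy livers in both HCC groups, by 0.77 without and 0.60 with miR-22, and was not called between them (-0.17, adjusted p = 0.217).

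**Figure D4:**
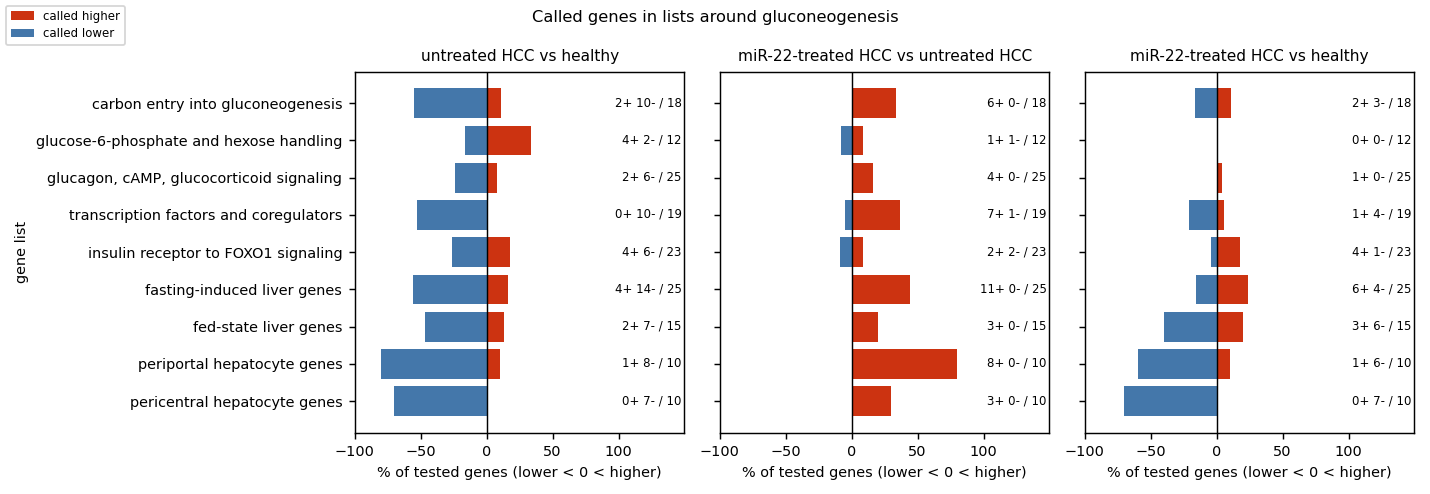
Share of tested genes of 9 lists called higher (red, right of 0) or lower (blue, left of 0) in each comparison, in percent, with the counts higher, lower and tested printed at the right. In untreated HCC the fasting-induced list has 14 of 25 genes lower, and with miR-22 against untreated HCC 11 of these 25 are higher.

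Among genes induced in fasting, and among genes of the fed state, more were called lower than higher in untreated HCC. Of 25 fasting-induced genes beside the members, 14 were called lower and 4 higher in untreated HCC (56.0% lower, beside 18.1% of all genes), 11 higher and 0 lower with miR-22 against untreated HCC (44.0% higher, beside 8.32%), and 6 higher and 4 lower against healthy livers (24.0% and 16.0%, beside 16.9% and 7.05%). The urea cycle genes Asl, Cps1 and Ass1 fell by 2.27, 2.39 and 2.09 on the log2 scale in untreated HCC, and Asl was 1.47 higher with miR-22 (adjusted p = 0.000110 by edgeR). Angptl4, an inhibitor of lipoprotein lipase, was at 47.1, 64.8 and 56.5 CPM in healthy livers, 33.3, 32.9 and 38.0 CPM in untreated HCC and 79.2, 203 and 195 CPM in miR-22-treated HCC, all above the healthy range. Fgf21, the fasting hormone, was at 1.18 ± 0.78 CPM in healthy livers and 13.4 ± 6.36 CPM with miR-22 (log2 fold change 3.54, adjusted p = 4.78e-05), and was at 15.7, 13.2 and 11.9 CPM in untreated HCC. Insig2 was at 129 ± 11.1, 264 ± 74.4 and 269.6 ± 13.4 CPM in healthy, untreated and miR-22-treated livers, called higher in both HCC groups than in healthy livers (1.04 and 1.06 on the log2 scale) and not called between them (0.03, adjusted p = 0.927).

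Of 15 fed-state genes, 7 were called lower and 2 higher in untreated HCC (46.7% lower, beside 18.1% of all genes), and 3 higher and 0 lower with miR-22 against untreated HCC (20% higher, beside 8.32%). Against healthy livers with miR-22, 6 were called lower and 3 higher (40% and 20%, beside 7.05% and 16.9%), at a median log2 fold change of -0.34. Thrsp, a lipogenic gene that carbohydrate feeding induces, was at 1866 ± 382, 116 ± 17.7 and 674 ± 212 CPM in healthy, untreated and miR-22-treated livers (SD, n = 3), and was lower with miR-22 than in healthy livers (-1.47, adjusted p = 0.000239 by edgeR). Mlxipl, which encodes the carbohydrate-sensing factor ChREBP, was at 403 ± 32.8, 127 ± 33.0 and 261 ± 32.1 CPM. Scd1, the stearoyl-CoA desaturase, rose by 1.88 on the log2 scale in untreated HCC and remained 1.78 above healthy livers with miR-22. Acss2 was 0.64 higher with miR-22 than without (adjusted p = 0.0171 by edgeR), and Pnpla3 was above healthy livers in both HCC groups, by 1.14 without and 1.61 with miR-22, with a difference of 0.47 between them that was not called (adjusted p = 0.0892).

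Gluconeogenesis is mainly a task of periportal hepatocytes, so genes of both ends of the lobule are set beside the members. Of 10 periportal genes, 8 were called lower and 1 higher in untreated HCC, 8 higher and 0 lower with miR-22 against untreated HCC, and 6 lower and 1 higher against healthy livers, with medians of -1.99, 1.14 and -0.82 on the log2 scale, where 18.1% of all genes were lower in the first, 8.32% higher in the second and 7.05% lower in the third comparison. Gls2, the liver glutaminase, was at 406 ± 24.1, 76.6 ± 15.2 and 196 ± 51.0 CPM in the 3 groups and Arg1, arginase, at 1535 ± 60.2, 416 ± 67.8 and 900.1 ± 146 CPM (SD, n = 3). Cdh1, which is also expressed by bile duct cells, was the periportal gene that rose (1.42 on the log2 scale, adjusted p = 1.30e-07 by edgeR). Of 10 pericentral genes, 7 were called lower in untreated HCC, 3 higher with miR-22 against untreated HCC, and 7 lower against healthy livers. Cyp1a2, a pericentral cytochrome P450, was at 643 ± 98.6, 96.7 ± 30.4 and 251 ± 69.6 CPM and Slc1a2, a glutamate transporter, fell by 2.29 in untreated HCC and was 1.43 higher with miR-22. Lect2 fell by 0.95 in untreated HCC, Cyp2e1 was 1.46 higher with miR-22, and Oat and Tbx3 were 0.94 and 0.65 lower than in healthy livers with miR-22 (-0.94 and -0.65). Both zones thus had a median below 0 against healthy livers with miR-22, at -0.82 and -0.84, where the 10 members had 0.20. Sds counts in 3 of these lists and the lists are not independent of each other.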

How the data were processed

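Gene read counts of 9 liver libraries (non-directional NEBNext Ultra II, paired-end) were deposited by the authors as raw counts, with a second table of normalized signal values, the same counts divided by a size factor. Per the labels and methods, the authors used FastQC 0.11.7, Salmon, tximport and DESeq2 1.18 with GRCm39. Without strand, reads of a gene and of an antisense partner cannot be told apart. Multiplying the normalized values back gave whole reads, within 0.01, for 100% of values, equal to the deposited counts. A fit of these recovered counts therefore had to call the same 6417, 2167 and 3772 genes and is no separate check.

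Counts were filtered with filterByExpr, scaled by TMM and tested with the quasi-likelihood F test of edgeR 4.0.16 in R 4.3.3, all 9 libraries in 1 fit, with Benjamini-Hochberg adjustment over 15717 genes. The thresholds for a call were 0.05 for the adjusted p and 1.5 for the fold change. Confidence intervals (95%) come from the same fit. Libraries of a group differed by more than sampling noise (chi-square per degree of freedom between 6.59 and 31.1). Counts were also simulated from 1 baseline shared by all groups, with 200 of 15717 genes changed in the untreated HCC libraries. Against healthy livers, 89 of 100 genes changed 4-fold and 60 of 100 changed 2-fold were called, with 7 false calls. Far fewer genes changed there than the 6417 called in the data, so these shares need not hold for the data. The alternatives were DESeq2 1.42.0, limma 3.58.1, other scalings, filters, thresholds, sample sets, a replicate block and leaving out each library.

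The 10 members, the gene lists and the motifs were chosen with earlier results of these data known. Named genes are the members, Akt1 and Nras, the most similar gene of each member by Pearson r, and in each pathway list and comparison the up to 3 called genes of smallest p, or the 1 of smallest p where none was called. Values of a named gene in other comparisons stand beside these. Cell type markers are described as lists, and those singled out were chosen after their values were seen. Gene positions come from GENCODE vM39 and promoter windows from RefSeq (GRCm38.p6), all 11 matched once in GRCm39. Tf was not found under that symbol.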

Additional observations from a re-analysis of the deposited data

How the results depend on the processing

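The number of members called stayed within 1.5 times of the reported 9 in untreated HCC against healthy livers under every alternative run, between 6 and 9. With miR-22 against untreated HCC it stayed between 6 and 9, except that 4 of the 8 remained when edgeR tested against a fold change of 1.5 (glmTreat). Against healthy livers the reported 2 became 4 without a filter on low counts and 1 with glmTreat, and ran from 1 to 3 when each library was left out. Over all genes, glmTreat called 4536, 468 and 2010 genes in place of 6417, 2167 and 3772, and leaving out 1 library gave between 1433 (without miR-22-treated liver 3) and 2660 genes with miR-22 against untreated HCC. The cause of these shifts was not tested, except that glmTreat asks for more than a point estimate past 1.5-fold.

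Signs turned only for members not called. Igfbp1 in untreated HCC against healthy livers was 0.21 with library totals only, 0.30 with a replicate block, and between -0.43 and 0.25 when each library was left out, at 0.05 without untreated HCC liver 4. With miR-22 against healthy livers, Pcx was 0.065 with library totals only, and leaving out 1 library gave between -0.080 and 0.24 for Pck1, -0.038 and 0.56 for Ppargc1a, -0.21 and 0.55 for Foxo1 and -0.49 and 0.042 for Klf15. Library totals only put the median of all genes at 0.43, -0.23 and 0.21 in the 3 comparisons, beside 0.01, 0.00 and 0.02, and under them Pcx (-0.19), Ppargc1a (-0.46) and Foxo1 (-0.30) were not called in untreated HCC, while with miR-22 against untreated HCC Fbp1 (0.47) was not called and Pck2 (-0.66) was.

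Replicate numbers are shared between groups, but libraries of the same number did not deviate together (r of -0.12, -0.13 and -0.24 between the HCC groups), so they were not treated as paired. With the number as a block, 7, 7 and 3 members were called in the 3 comparisons, beside 5863, 1745 and 3044 of all 15717 genes. Ppargc1a (adjusted p = 0.0559 by edgeR) and Foxo1 (0.111) were lost in the first and Foxo1 (0.0590) in the second. In a block fit of the HCC groups alone, 6 members and 958 genes of all were called, Fbp1 (adjusted p = 0.0853) and Foxo1 (0.0833) being lost.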
